A study of Sus scrofa with 12 samples.

Results

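The data described here compare porcine oocytes after 22h of in vitro maturation (22h, 4 libraries) with oocytes collected at 0h (4 libraries), and these are 8 of the 12 libraries of the series. The genes are all those with a mean of at least 1 FPKM (fragments scaled to the length of the transcript and to the fragments of the library) over the 8 libraries, which left 7218 of the 31908 genes listed, 6276 of them with a gene symbol. The study set out to relate transcripts and metabolites of pig oocytes at successive points of maturation. Oocyte and cumulus complexes were aspirated from antral follicles of prepubertal gilts and pooled, so that no library can be traced to an animal. The 0h oocytes had no maturation culture, and the 22h oocytes were cultured within their cumulus in a medium with follicular fluid, epidermal growth factor and gonadotropins. At both times the cumulus was removed with hyaluronidase, and 20 denuded oocytes made up a library, amplified by SMART-Seq2. The sample labels give the middle time point as 22h, whereas the design text deposited with them gives another hour, and 22h is used.

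As background, a fully grown oocyte rests in prophase of the first meiotic division with an intact germinal vesicle and makes almost no new nuclear RNA. When meiosis resumes the germinal vesicle breaks down, a spindle forms, and the stored maternal mRNAs are used in turn. Some are given longer poly(A) tails and translated, and others lose their tails and are degraded, in part through short elements in the 3′ UTR such as the cytoplasmic polyadenylation element that CPEB1 binds. SMART-Seq2 starts cDNA at the poly(A) tail, so the amount of an RNA and the length of its tail cannot be told apart in these values, nor can less RNA per oocyte and fewer oocytes.

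More genes were lower than higher at 22h. Of the 7218 genes tested with limma, 1948 (27.0%) were called at an adjusted p under 0.05 and a fold change over 1.5. Higher at 22h were 551 (7.63%), and 1397 (19.4%) were lower. Of these, 13 of the rises had a mean under 1 FPKM at 0h and 182 of the falls one under 1 FPKM at 22h, so that they passed the filter on low values only through the group where they were high. The called genes that rose did so by little, with a median difference of 0.78 on the log2(FPKM + 1) scale, whereas the median of those that fell was -1.08. A change of more than 2-fold was seen in 95 of the genes that rose and in 793 of those that fell, and one of more than 4-fold in 9 and in 137. Over all genes tested the median difference was -0.02, and the middle of the distribution ran from -0.50 at the lower quartile to 0.32 at the upper. The share of genes that rose increased with the level of the gene, from 1.55% in the lowest quartile group of mean FPKM to 14.6% in the highest, while the share that fell was 15.5% in the lowest group and between 20.2% and 21.3% in the others. No gene was called in opposite directions under any of the 17 alternative ways of processing. The balance of calls moved with the scaling. Rises made up 28.3% of the calls as reported, 38.4% after rescaling without the mitochondrially encoded genes and 47.6% after quantile normalization, which moved the median of all genes from -0.02 to 0.13.

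**Figure D1:**
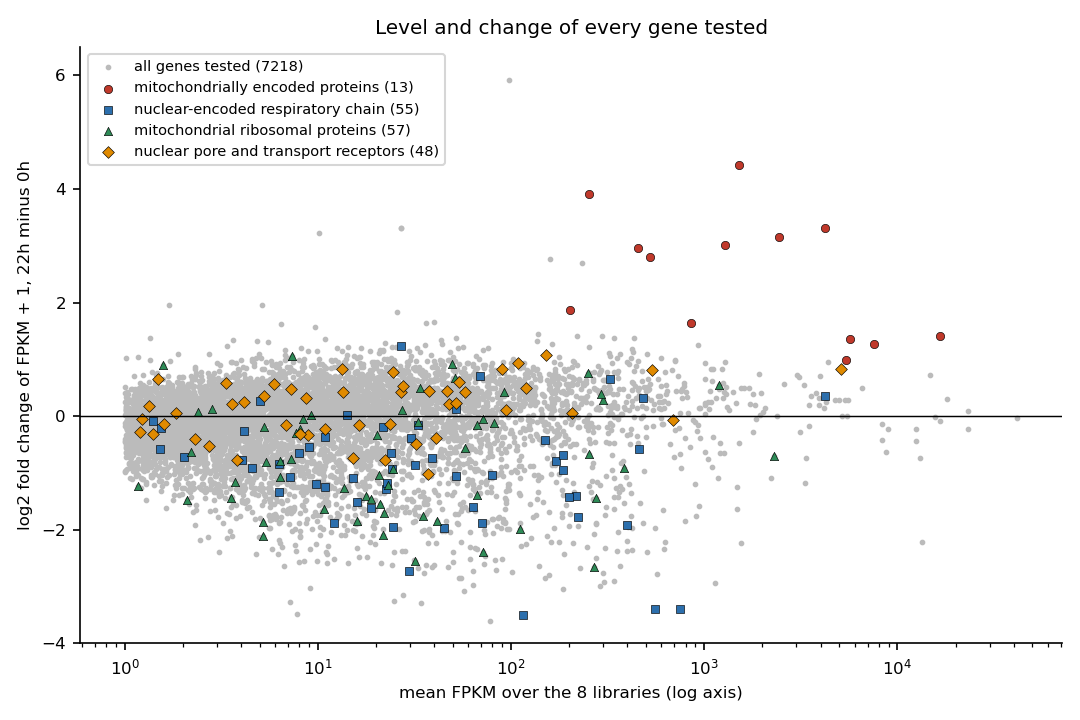
Mean FPKM over the 8 libraries (log axis) against the log2 fold change of FPKM + 1 from 0h to 22h, with a grey point for each of the 7218 genes tested and coloured markers for the members of 4 lists. The mitochondrially encoded genes lie at the upper right, with 12 of 13 called higher, and most members of the nuclear-encoded respiratory chain and of the mitochondrial ribosome lie below the line at 0.

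The libraries were those of oocytes by their markers. The summed level of the oocyte markers was 55943 to 73999 FPKM at 0h and 67120 to 87498 FPKM at 22h. Of 30 cumulus and granulosa cell markers, 24 were under 1 FPKM in all 8 libraries, and LHCGR, INHA and AREG were listed at 0 in each. The sum of these 30 was 61.5 to 106 FPKM at 0h and 70.5 to 105 FPKM at 22h (exact permutation p = 0.714), with VCAN the most abundant in every library, and none of the 6 that were tested was called, with 1 at an unadjusted p under 0.05 in limma. Of 12 blood and theca cell markers, 9 were under 1 FPKM throughout, and of the 3 tested 1 was called. This was TAGLN, at 26.8, 25.7, 21.9 and 20.9 FPKM at 0h and at 12.6, 13.9, 21.6 and 12.3 FPKM at 22h, and its call (-0.65 ± 0.20, adjusted p = 0.0224) was lost under 8 alternatives, among them without 0h replicate 1 or 2 (adjusted p = 0.0604 and 0.0505) and without 22h replicate 1, 2 or 4 (adjusted p = 0.0532, 0.0567 and 0.0695). Library 0h replicate 4 stood apart, with a correlation of 0.935 to 0.970 with the other 0h libraries, which correlated with each other at 0.979 to 0.988. The stages were not fully separated by this measure. Replicates 1 and 2 of 0h correlated with 22h replicate 3 at 0.95 and 0.94, and with 0h replicate 4 at 0.947 and 0.935. Deviations of 0h replicate 4 from its group mean correlated with those of 22h replicate 1 at 0.53, the highest of any pair across the stages. Without 0h replicate 4, 860 genes rose and 1373 fell, so the counts of rises below are also given without that library where they moved by more than 1.5 times. In every list with at least 10 falls, the number of falls stayed within 1.5 times of that reported when any of the 8 libraries was left out. Most lists had few rises, and these counts moved by more than 1.5 times with other libraries too, as given beside the lists the text leads with. No counts come with FPKM, so the depth of a library is unknown and the spread over replicates is the only measure of precision. Whether the replicates came from separate collections is not given in the sources used here, so p-values measure the spread between these libraries.

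**Figure D2:**
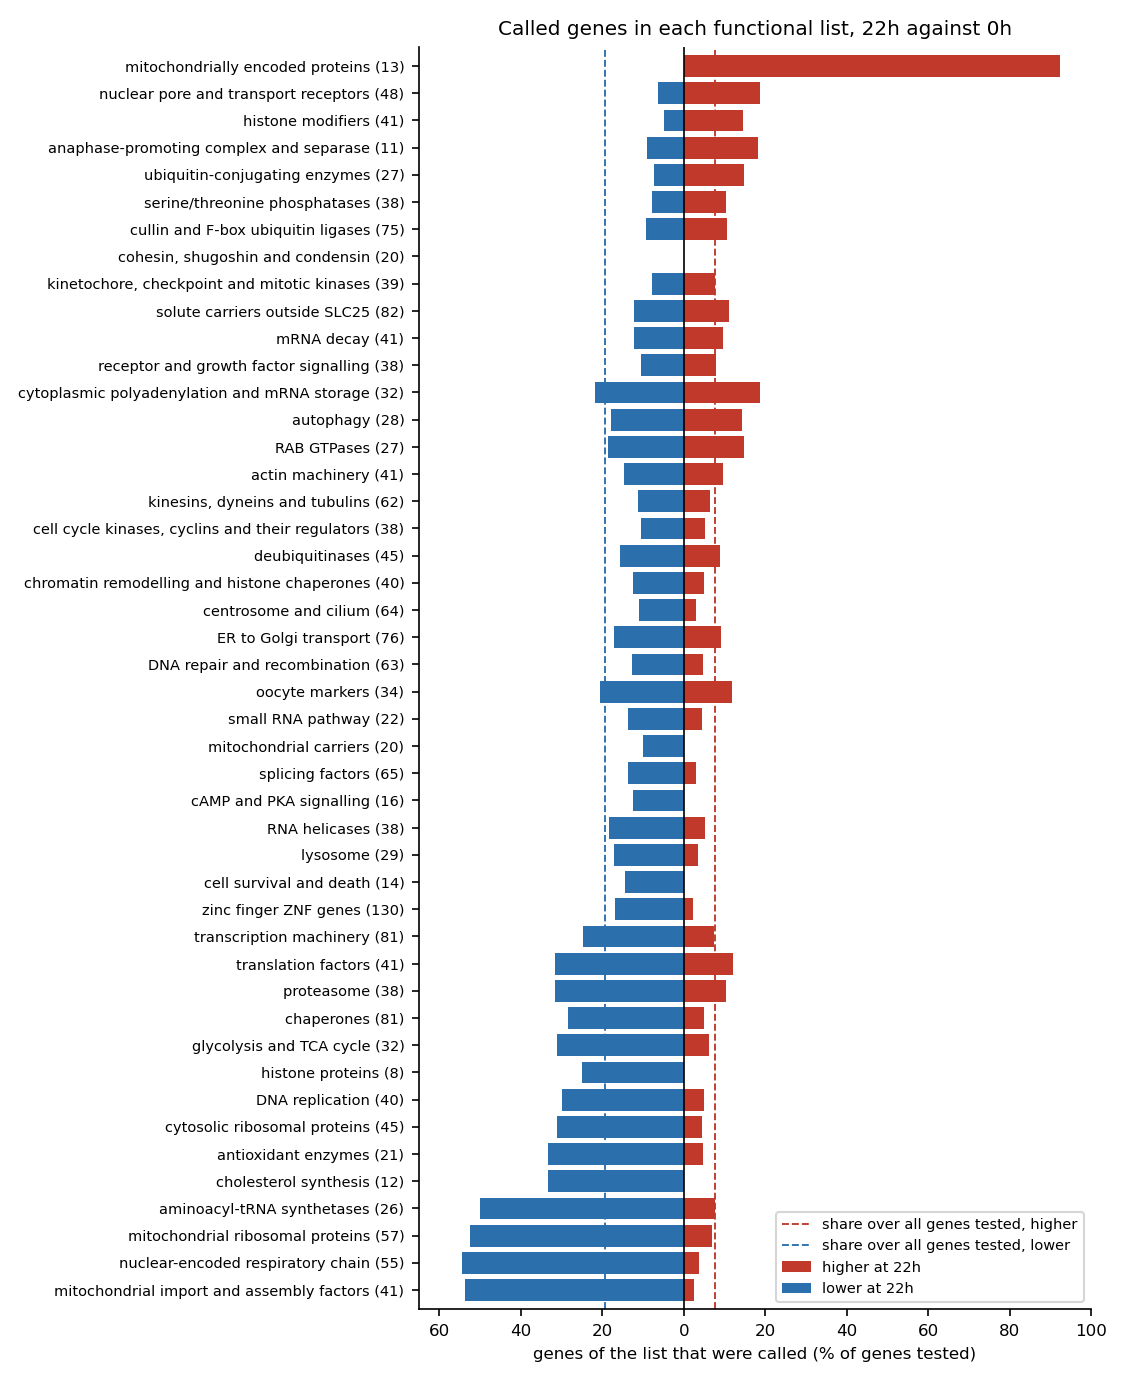
Share of the tested members of each functional list that was called higher (right, red) or lower (left, blue) at 22h, in percent, with the number of genes tested in brackets and dashed lines at the shares over all genes tested (7.63% and 19.4%). Lists of the mitochondrion stand at both ends, other than its carriers (0% higher and 10% lower). Lists of the nuclear pore, histone modifiers and ubiquitin ligases show more rises and fewer falls than all genes.

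Genes of the respiratory chain encoded in the mitochondrion and in the nucleus had the highest and the lowest median of the 48 lists. Of the 13 proteins that the mitochondrial DNA encodes, 12 were called higher (92.3%) and none lower in limma, against 7.63% and 19.4% of all genes. None was lower at an unadjusted p under 0.05 either, and the median was 2.80 on the log2 scale. The median was 1.93 without 22h replicate 2 and at least 2.31 without any other single library, and 11 or 12 members were called in each case. ND6, a subunit of respiratory complex I, was at 49.8, 166, 249 and 127 FPKM in the 4 libraries of 0h and at 4260, 1926, 2365 and 2894 FPKM in those of 22h. Every 22h library was above every 0h library, and the log2 difference was 4.42 ± 0.39 (SE, adjusted p = 7.05e-06). The other complex I subunits encoded in the mitochondrion rose as well, ND4L by 3.91, ND2 by 3.31, ND5 by 3.02, ND3 by 2.80, ND4 by 1.87 and ND1 by 1.63. CYTB, of complex III, was at 304, 828, 633 and 318 FPKM at 0h and at 5537, 3525, 3568 and 4699 FPKM at 22h, a log2 difference of 3.16 ± 0.30 (adjusted p = 1.2e-05). The rises were smaller for the catalytic subunits of complex IV, at 1.36 for COX1 and 0.99 for COX3, and the call of COX3 was lost under 9 of the 17 alternatives, among them without 0h replicate 1 or 2 (adjusted p = 0.115 and 0.0908) and without 22h replicate 1, 2 or 4 (adjusted p = 0.108, 0.0915 and 0.0517). ATP8, whose reading frame overlaps that of ATP6, was listed at 0 in 7 libraries and at 3628 FPKM in 22h replicate 2, and was not called. ND6 lies on the other strand of the mitochondrial genome, and the library method does not mark strand. Together these genes made up 1.79% to 3.76% of the summed FPKM of the 0h libraries and 8.06% to 12% of that of the 22h libraries (exact permutation p = 0.0286, the smallest that 4 against 4 libraries allow), and this share enters the scaling of all other genes.

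Of 55 nuclear-encoded respiratory chain subunits and ATP synthase parts, 30 fell (54.5%), 2 rose (3.64%) and 23 were not called (median -0.86), against 19.4% and 7.63% of all genes. Their transcripts are short, with a median of 782 bases in the 34 for which a transcript was found. In the shortest quartile group of all transcripts (up to 1856 bases) 31.7% fell. NDUFB7, of complex I, had the largest fall, from 137, 136, 206 and 357 FPKM at 0h to 34.9, 2.52, 27.7 and 22.97 FPKM at 22h (-3.49 ± 0.60, adjusted p = 0.000649). NDUFA8, another accessory subunit of complex I, was at 847, 912, 1013 and 1210 FPKM at 0h and at 204, 33.5, 124 and 84.9 FPKM at 22h. The groups did not overlap, and the difference was -3.40 ± 0.38 (adjusted p = 3.41e-05). ATP5MC1, which encodes the c subunit of the ATP synthase rotor, was at 1074, 993, 1356 and 2044 FPKM at 0h and at 225, 60.1, 140 and 125 FPKM at 22h, a difference of -3.39 ± 0.43 (adjusted p = 7.82e-05). SDHD, the membrane anchor of complex II, went the other way. It was at 48.7, 59.9, 55.8 and 41.8 FPKM at 0h and at 73.7, 98.7, 69.9 and 100 FPKM at 22h (0.72 ± 0.17, adjusted p = 0.0065), again with no overlap.

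Of 41 mitochondrial import and assembly factors, whose products build these complexes, 22 fell and 1 rose (53.7% and 2.44%, against 19.4% and 7.63% of all genes, median -0.76). Their summed level overlapped between the groups (2877 to 4599 FPKM at 0h and 3422 to 3800 FPKM at 22h). TOMM20, a receptor of the outer membrane translocase, fell by 2.06 on the log2 scale and TIMM17A, of the inner membrane translocase, fell by 1.86. CHCHD2 rose by 0.74 and lost its call only under quantile normalization. Of 57 mitochondrial ribosomal proteins, 30 fell and 4 rose (52.6% and 7.02%, against the same shares of all genes, median -0.80). MRPL46, of the large subunit, was at 393, 434, 429 and 569 FPKM at 0h and at 140, 31.1, 92.1 and 62.4 FPKM at 22h. All 22h libraries were lower, by -2.65 ± 0.33 (adjusted p = 7.12e-05). The 4 that rose were MRPS5, MRPL44, MRPL16 and MRPL43, by 0.76 to 1.06. The medians of these 3 lists of nuclear genes were below 0 under every alternative. The mitochondrial carriers did not share this pattern. Of 20 tested, 2 fell (10%) and 0 rose in limma, although 4 were higher at an unadjusted p under 0.05, and the median was -0.03. Over all alternatives 1 to 2 of them fell and 0 to 2 rose.

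Of 21 antioxidant enzymes tested, 7 fell and 1 rose (33.3% and 4.76%, against 19.4% and 7.63% of all genes), and the median was -0.13, with 9 members above 0 and 12 below. The summed level of the list, which its few abundant members dominate, was 2718 to 3232 FPKM at 0h and 839 to 1313 FPKM at 22h. PRDX2, a peroxiredoxin that reduces hydrogen peroxide, was at 869, 872, 955 and 673 FPKM at 0h and at 178, 88.9, 247 and 160 FPKM at 22h. The lowest 0h library was far above the highest at 22h, and the difference was -2.39 ± 0.25 (adjusted p = 2.32e-05). PRDX1 fell by 2.34. CAT, the catalase gene, was at 44.7, 56.6, 25.6 and 15.9 FPKM at 0h and at 38.1, 69.1, 77.1 and 81.6 FPKM at 22h. The groups overlapped, and its call (0.98 ± 0.34, adjusted p = 0.0436) was lost under 9 alternatives, among them without 0h replicate 3 or 4 (adjusted p = 0.11 and 0.098) and without 22h replicate 2, 3 or 4 (adjusted p = 0.0958, 0.0982 and 0.115).

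In the cytosolic translation machinery 31.1% of ribosomal proteins, 31.7% of translation factors and 50% of aminoacyl-tRNA synthetases fell, against 19.4% of all genes. Of 45 cytosolic ribosomal proteins, 14 fell and 2 rose (median -0.32). Most of their transcripts are in the shortest quartile group, where 30.2% of them and 30.7% of the genes outside both ribosomes and the proteasome fell. RPS24, of the small subunit, was at 331, 297, 875 and 1052 FPKM at 0h and at 106, 66.8, 120 and 67.8 FPKM at 22h. The 0h libraries were themselves far apart, yet all 4 were above the 22h libraries, and the difference was -2.64 ± 0.45 (adjusted p = 0.000688). The ribosomal proteins together made up 0.827% ± 0.183 (SD, n = 4) of summed FPKM at 0h and 0.578% ± 0.115 at 22h, a difference that did not pass the exact permutation test (p = 0.0857). Ribosomal protein genes have many near-identical copies in the genome, between which reads may have been split. Of 41 translation factors, 13 fell and 5 rose, and 3 rose without 0h replicate 2, 22h replicate 2 or 22h replicate 3. EIF6, which keeps the ribosomal subunits apart, fell by 2.32, and EIF4E3, a member of the cap-binding family, rose by 0.83. EEF1E1, a scaffold of the aminoacyl-tRNA synthetase complex, was at 35.8, 40.7, 35.6 and 34.4 FPKM at 0h and at 8.34, 3.54, 5.61 and 4.48 FPKM at 22h. The groups were wide apart, with a difference of -2.58 ± 0.20 (adjusted p = 2.82e-06). Of 26 aminoacyl-tRNA synthetases and their scaffold proteins, 13 fell and 2 rose (median -0.54), with a difference of -1.79 for AIMP2, another scaffold. YARS1, which charges the tyrosine tRNA, fell by 1.54, and RARS1, for the arginine tRNA, fell by 1.40.

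Genes that act on stored mRNA changed in both directions. Of 32 genes of cytoplasmic polyadenylation and mRNA storage, 6 rose and 7 fell (18.8% and 21.9%, against 7.63% and 19.4% of all genes, median 0.19). As reported, the share of rises was above that of all genes and the share of falls close to it. The largest of these rises, that of CPSF6 (1.02), passed the filter only through the 22h libraries, where it was high. CPEB1, which binds the cytoplasmic polyadenylation element, was at 34.4, 21.0, 29.3 and 21.8 FPKM at 0h and at 33.7, 41.5, 50.4 and 49.7 FPKM at 22h. The groups overlapped in 1 library of each, and CPEB1 rose by 0.71 ± 0.19 (adjusted p = 0.0129). ZAR1, an RNA-binding factor needed at the passage from oocyte to embryo, was at 101.1, 91.5, 144 and 225 FPKM at 0h and at 41.3, 12.4, 20.9 and 20.8 FPKM at 22h. It fell in every library, by -2.54 ± 0.33 (adjusted p = 8.62e-05). YBX2, which packages mRNA in germ cells, fell by 2.42, and the RNA helicase DDX6 fell by 0.77, whereas PATL1, a partner of DDX6 in mRNA particles, rose by 0.79. PAPOLG, a poly(A) polymerase, fell by 2.38. Without 0h replicate 4 the list had 9 rises and 8 falls, and over all alternatives it had 4 to 11 rises and 6 to 8 falls.

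Among 41 genes of mRNA decay, 4 rose and 5 fell (9.76% and 12.2%, against 7.63% and 19.4% of all genes). The number of rises was 8 without 0h replicate 4, 2 without 0h replicate 1 or 22h replicate 1, 1 without 22h replicate 2 and 0 without 0h replicate 2, and the number of falls was 3 without 0h replicate 3 or 22h replicate 2 and 2 without 22h replicate 4. BTG4, an adaptor that recruits the deadenylase in maturing oocytes, was among the most abundant transcripts, at 15842, 17621, 15649 and 13936 FPKM at 0h and at 16544, 16872, 13761 and 15243 FPKM at 22h. The groups overlapped fully, and the difference was -0.01 ± 0.14 (adjusted p = 0.946). The deadenylase subunits of that complex were far less abundant. CNOT6 was at 5.92, 3.66, 8.17 and 12.3 FPKM at 0h and at 16.6, 15.9, 10.2 and 12.7 FPKM at 22h. The groups overlapped, and its call (0.89 ± 0.28, adjusted p = 0.0249) was lost under 6 alternatives, among them without 0h replicate 1 or 2 (adjusted p = 0.0621 and 0.0697) and without 22h replicate 1 or 2 (adjusted p = 0.0584 and 0.0702). CNOT8 fell by 1.10 and the exosome subunit EXOSC8 fell by 1.39. In the small RNA pathway (22 tested, 1 higher and 3 lower) GTSF1, a partner of PIWI proteins, had the smallest adjusted p of all genes tested. It was at 333, 347, 338 and 312 FPKM at 0h and at 49.6, 29.9, 36.4 and 45.4 FPKM at 22h (-3.04 ± 0.19, adjusted p = 1.44e-06). PIWIL3 fell by 0.76, and TNRC6A, which links Argonaute proteins to deadenylation, rose by 0.86.

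**Figure D3:**
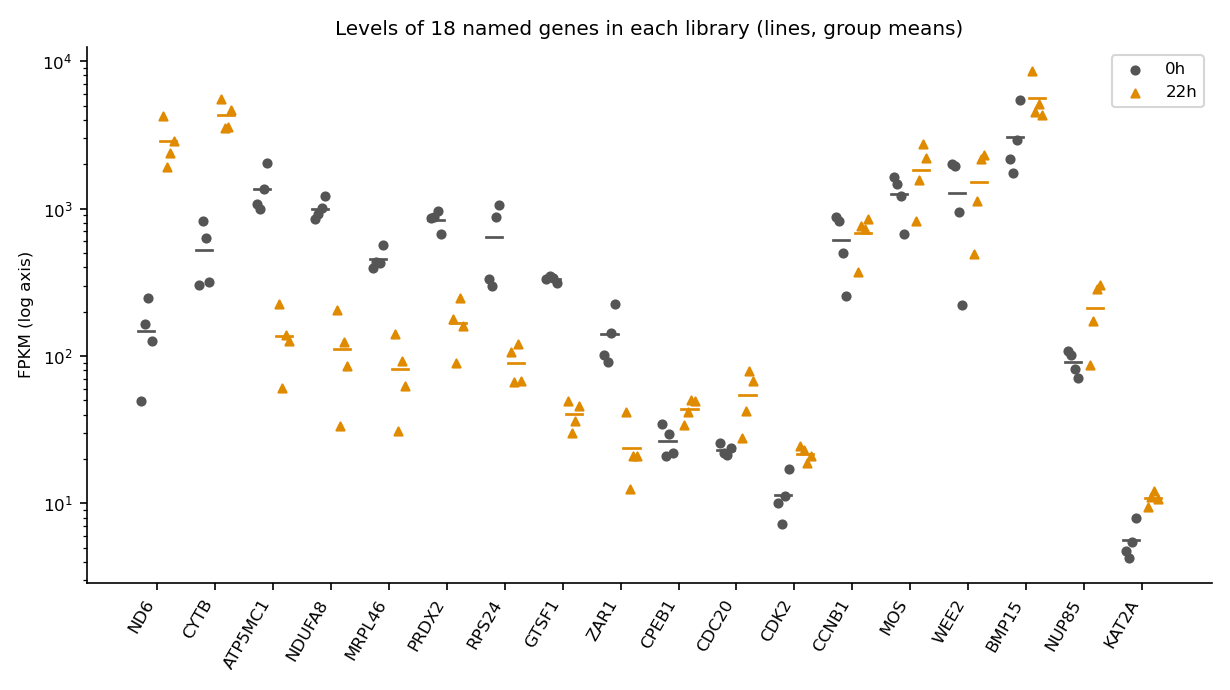
FPKM (log axis) of 18 named genes in each library, with circles for 0h, triangles for 22h and a line at the mean of each group of 4. ND6 and CYTB are higher and ATP5MC1 to ZAR1 lower at 22h in every library, while CCNB1, MOS and WEE2 overlap between the groups.

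The genes that rose and those that fell also differed in their transcripts. Transcripts of RefSeq on the Sscrofa11.1 build were found for 5873 of the 6276 genes with a symbol. The median length was 3035 bases for genes that rose, 2108 bases for those that fell and 3471 bases for those not called, and the median GC content was 47.4%, 51.4% and 46%. In the last 100 bases of the transcript, the letters TTTTAT or TTTTAAT, which are forms of the cytoplasmic polyadenylation element on the transcript strand, were present in 32.9% of the genes that rose (153 of 465), in 12.4% of those that fell (131 of 1057) and in 21.7% of all genes (1273 of 5873). The longer form can overlap the polyadenylation signal AATAAA, and the shorter form can overlap the variant signal ATTAAA, as in NSL1 below. AATAAA was present in 69.5% of the genes that rose, 53.9% of those that fell and 63% of all. ATTAAA was present in 22.2%, 17% and 21.4%. Of the genes with no copy of the element 6.78% rose and 20.1% fell, with a single copy 11.7% and 11.1%, and with at least 2 copies 14.2% and 5.11%. Where the 3′ UTR is under 100 bases, the last 100 bases can reach into coding sequence. Among genes with a 3′ UTR of at least 100 bases, the element was in 35.4% of rises (150 of 424). It was in 13.3% of falls (121 of 907) and 22.8% of all (1226 of 5384). These are descriptions of the annotated ends, which need not be the ends used in the oocyte.

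The windows below show the element, in capitals, in 7 genes that rose and in 2 cell cycle genes that were not called. Each is 30 bases, 5′ to 3′ on the strand of the transcript, and lies at chr5:33559912-33559941 (plus strand) for CPSF6, chr5:39329632-39329661 (minus) for NAP1L1, chr5:21372141-21372170 (plus) for CDK2, chr3:22612808-22612837 (plus) for PALB2, chr9:130668899-130668928 (plus) for NSL1, chr10:23198889-23198918 (minus) for DDX59, chr1:169877202-169877231 (minus) for FBXO33, chr16:47348301-47348330 (plus) for CCNB1 and chr10:48877464-48877493 (plus) for MASTL. CPSF6 was at 0.10 to 0.42 FPKM at 0h and 0.58 to 3.19 FPKM at 22h, and passed the filter only through the 22h libraries.
CPSF6: tgtatcgaaaataaaacagtTTTTATaata
NAP1L1: ttaataaaatttgcatttaaTTTTATaaaa
CDK2: ttaaaaaaaagttcttagTTTTATagctca
PALB2: cagatgttaataaataTTTTATtttggtac
NSL1: aaaataatgtgtTTTTATtaaaataatgta
DDX59: gatgtaaacaaTTTTAATagactgtcacgt
FBXO33: aatgtatattcTTTTAATcaatgaataaag
CCNB1: aaaaatgagaaTTTTAATttatattcaaaa
MASTL: agcttgttcaaTTTTAATaaaaaatgtggt

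In these windows the element ended 4 bases from the transcript end in CPSF6 and NAP1L1 and 67 bases from it in CCNB1. The element was also found in genes that fell, among them CHEK2, SETD6, OTUB1 and PPM1G, and is shown for CHEK2 at chr14:45929770-45929799 (minus). For 4 other genes that fell the polyadenylation signal is shown in capitals, at chr5:19639332-19639361 (minus) for GTSF1, chr6:167868524-167868553 (plus) for MED8, chr1:191331286-191331315 (plus) for MRPL46 and chr2:66211438-66211467 (plus) for PRDX2.
CHEK2: tttaaatctgttTTTTATactttgtatttc
GTSF1: acttgtcactaaAATAAAgtatgctctccc
MED8: agggtttctctgAATAAAgttatttaagga
MRPL46: tatattctgagaAATAAAcacgtttgtcat
PRDX2: cttttggtgaccAATAAAgtattagggaca

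Calls were also counted by length and GC content. In the shortest quartile group of transcripts 31.7% fell, against 10.8% in the longest, and in the quartile group with the highest GC content 30% fell, against 9.89% in the lowest. Within every quartile group of length, of GC content and of mean FPKM, genes with the element had the larger share of rises and the smaller share of falls. In the shortest group, for example, 11.5% of genes with the element rose and 16.6% fell, against 6.24% and 34.8% of those without it. Ribosomal and proteasomal transcripts are short. In that group 61.4% of the 44 mitochondrial ribosomal proteins, 37% of the 27 proteasome genes and 30.2% of the 43 cytosolic ribosomal proteins fell, against 30.7% of the genes there that are in none of these lists, so that the share of the cytosolic ribosomal proteins was close to that of other short transcripts. By class, the element was most frequent, among lists of more than 20 genes with a transcript, in cytoplasmic polyadenylation and mRNA storage (13 of 31 genes) and in histone modifiers (16 of 41), and it was in none of the 31 oocyte markers with a transcript. The part of length, GC content or priming in these calls was not tested.

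**Figure D4:**
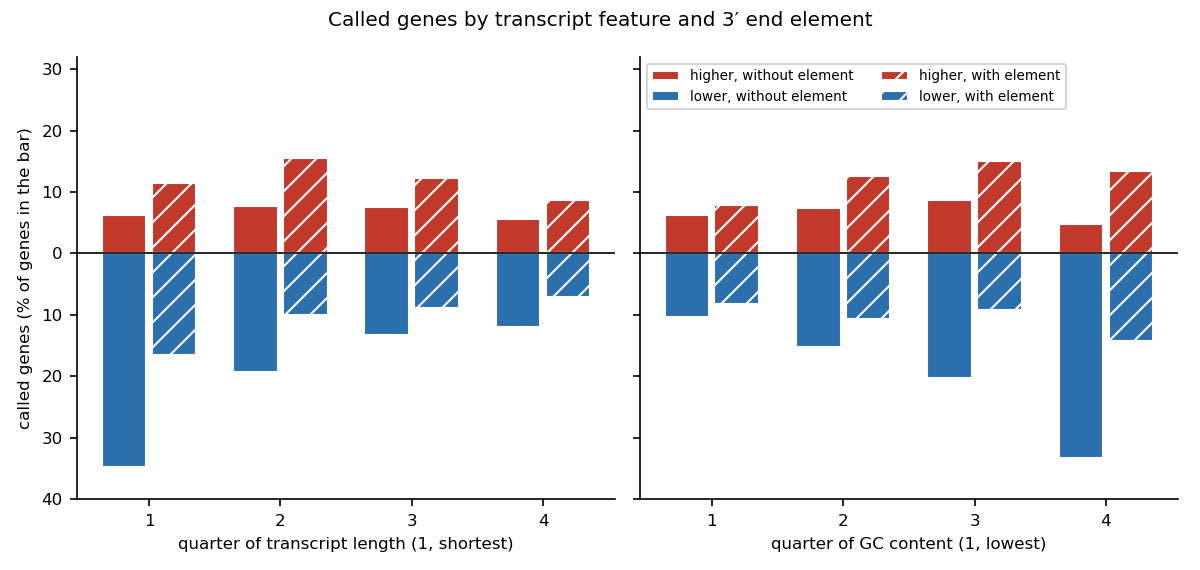
Share of genes called higher (above 0, red) and lower (below 0, blue) at 22h, in percent, by quartile group of transcript length (left) and of GC content (right), without the element (plain bars) and with TTTTAT or TTTTAAT in the last 100 bases (hatched bars). In each group the hatched bars reach further up and less far down than the plain ones.

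The class of nuclear pore proteins and transport receptors, which carry cargo through the envelope that breaks down at resumption, had the highest share of rises among the lists of more than 40 genes. Of 48 tested, 9 rose and 3 fell (18.8% and 6.25%, against 7.63% and 19.4% of all genes, median 0.21). NUP85, a subunit of the pore scaffold, was at 109, 102, 81.0 and 70.8 FPKM at 0h and at 86.2, 172, 283 and 303 FPKM at 22h. A single 22h library lay within the range of 0h, and the call (1.07 ± 0.33, adjusted p = 0.0233) was lost under 5 alternatives, among them without 0h replicate 3 (adjusted p = 0.0579), 22h replicate 3 (0.069) or 22h replicate 4 (0.0788). NDC1, which anchors the pore in the membrane, rose by 0.93, RAE1, of mRNA export, by 0.82 and NUP93 by 0.82, and these calls held under all alternatives. RANBP1, a cofactor of the small GTPase RAN, was at 40.5, 37.0, 54.5 and 69.3 FPKM at 0h and at 30.2, 18.9, 25.5 and 21.2 FPKM at 22h. It was lower in every library, by -1.02 ± 0.22 (adjusted p = 0.00307). The list had 5 rises without 22h replicate 2, 3 or 4 and 6 falls without 0h replicate 4, and its rises ranged from 4 to 13 over all alternatives.

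Of 41 histone modifiers, 6 rose and 2 fell (14.6% and 4.88%, against 7.63% and 19.4% of all genes, median 0.18), with 10 and 3 without 0h replicate 4. KAT2A, a histone acetyltransferase, was at 4.75, 4.24, 5.44 and 7.97 FPKM at 0h and at 9.48, 11.1, 12.1 and 10.7 FPKM at 22h. The groups did not overlap, and the difference was 0.87 ± 0.20 (adjusted p = 0.00437). The demethylases KDM6A and KDM1A rose by 0.80 and 0.73. SETD6, a methyltransferase counted among the falls, fell by 1.38. It was at 1.87 to 5.17 FPKM at 0h and 0.12 to 1.39 FPKM at 22h, and passed the filter only through the 0h libraries. DNMT1, the maintenance DNA methyltransferase, was at 11380, 11983, 13988 and 20364 FPKM at 0h and at 12393, 10827, 10336 and 8513 FPKM at 22h. The groups overlapped, and the difference of -0.43 ± 0.20 did not pass the test (adjusted p = 0.117). Chromatin remodellers and histone chaperones (2 higher and 5 lower of 40, 5% and 12.5%) had 7 and 6 without 0h replicate 4. Of 8 histone genes tested 2 fell, with a difference of -2.62 for H2AJ.

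The transcription machinery had 20 falls and 6 rises among 81 genes (24.7% and 7.41%, near the 19.4% and 7.63% of all genes, median -0.04), with 3 rises without 0h replicate 1 or 22h replicate 3 and 2 without 22h replicate 2. MED8, a Mediator subunit, was at 144, 136, 124 and 171 FPKM at 0h and at 37.3, 8.68, 29.8 and 19.7 FPKM at 22h, a difference of -2.71 ± 0.33 (adjusted p = 5.77e-05). Of the subunits of RNA polymerase II, 5 were called lower (POLR2F, POLR2D, POLR2G, POLR2I and POLR2B, at -2.09, -1.84, -1.73, -1.17 and -0.69) and POLR2H was called higher, at 0.59. The call of POLR2H was lost under 4 alternatives, where its difference came under the 1.5-fold threshold (0.57 without 0h replicate 1, 0.49 without 0h replicate 4, 0.52 without 22h replicate 2 and 0.58 without 22h replicate 3), and that of POLR2B under 2 (-0.58 without 0h replicate 4, and after quantile normalization). In Mediator, MED17 rose by 0.94, and the larger difference of MED15 (1.20 ± 0.44, adjusted p = 0.0492) lost its call under 11 alternatives, among them without any single library other than 0h replicate 4 (adjusted p = 0.0695 to 0.142). CDK7, the kinase of the general factor TFIIH that also activates other cyclin-dependent kinases, was at 224, 274, 175 and 83.2 FPKM at 0h and at 35.7, 30.3, 40.1 and 32.7 FPKM at 22h. It was lower in every 22h library, by -2.29 ± 0.31 (adjusted p = 0.000108). Among 130 ZNF genes, which encode zinc finger proteins, 22 fell and 3 rose, and among 65 splicing factors 9 fell and 2 rose, and the shares of falls in both (16.9% and 13.8%) were below that of all genes. Without 0h replicate 4 the rises in these lists were 8 and 11, and the sign of the median of the splicing factors and of the transcription machinery changed in 5 of the 17 alternatives each.

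Of 38 cell cycle kinases, cyclins and their regulators, 2 rose and 4 fell (5.26% and 10.5%, against 7.63% and 19.4% of all genes), and without 0h replicate 4 these were 7 and 5. CCNB1, the cyclin B of maturation promoting factor, was at 877, 827, 503 and 254 FPKM at 0h and at 373, 763, 727 and 855 FPKM at 22h. The groups covered nearly the same range, and the difference was 0.23 ± 0.35 (adjusted p = 0.635). CCNB2 differed by 0.15 ± 0.29 (adjusted p = 0.712) and CDC25B, a phosphatase that activates CDK1, by -0.64 ± 0.45 (adjusted p = 0.292). The kinase CDK1 itself differed by -0.21 ± 0.20 (adjusted p = 0.465) and MOS, the kinase upstream of MAPK in oocytes, by 0.50 ± 0.37 (adjusted p = 0.33). WEE2, which holds CDK1 inactive in the arrested oocyte, was at 2008, 1950, 950 and 222 FPKM at 0h and at 491, 1119, 2171 and 2316 FPKM at 22h. Both groups spread over a wide range, and with an SE of 0.62 on a difference of 0.43 the libraries could not show a change of this size. CDK2 rose, from 10.1, 7.19, 11.2 and 17.1 FPKM at 0h to 24.3, 22.9, 18.7 and 21.1 FPKM at 22h (0.93 ± 0.21, adjusted p = 0.00434), and MAP2K1, a kinase of the MAPK cascade, rose by 0.93.

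Single genes of chromosome segregation did change. CDC20, the activator of the anaphase-promoting complex, was at 25.6, 22.1, 21.2 and 23.9 FPKM at 0h and at 27.6, 42.3, 79.0 and 67.3 FPKM at 22h. All 22h libraries were higher, the lowest of them by little, and the difference was 1.08 ± 0.28 (adjusted p = 0.00915). ESPL1, the separase that cuts cohesin, rose by 0.86, and CDC26, a small subunit of the complex, fell by 0.98 with overlapping groups. Of 39 kinetochore, checkpoint and mitotic kinase genes, 3 rose and 3 fell (7.69% each, against 7.63% and 19.4% of all genes), with 6 rises without 0h replicate 4 and 5 falls without 22h replicate 1. In the outer kinetochore SPC24, of the NDC80 complex, was at 202, 198, 227 and 324 FPKM at 0h and at 62.4, 13.9, 51.5 and 39.3 FPKM at 22h, a difference of -2.64 ± 0.36 (adjusted p = 0.00012). NSL1, of the MIS12 complex, was at 42.9, 41.4, 33.4 and 25.9 FPKM at 0h and at 44.8, 63.3, 62.2 and 85.5 FPKM at 22h, and so rose (0.81 ± 0.21, adjusted p = 0.0112), while DSN1, of the same complex, fell by 1.64. In the chromosomal passenger complex the kinase AURKB rose by 0.72 and BIRC5 fell by 1.62. Of 20 genes of cohesin, shugoshin and condensin none was called in limma, although 5 were higher at an unadjusted p under 0.05, and 3 were called higher without 0h replicate 4, 2 without 22h replicate 3 and 1 without 22h replicate 4. SGO2, which protects centromeric cohesin, differed by -0.00 ± 0.34 (adjusted p = 0.995).

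Genes of the cytoskeleton had shares of calls near or below those of all genes (7.63% higher and 19.4% lower). Of 62 kinesins, dyneins and tubulins, 4 rose and 7 fell (6.45% and 11.3%), with 1 rise without 22h replicate 2 or 4 and 7 without 22h replicate 3. HAUS1, a subunit of augmin, which nucleates microtubules within the spindle, was at 1049, 1140, 974 and 914 FPKM at 0h and at 333, 137, 232 and 217 FPKM at 22h. The lowest 0h library was far above the highest at 22h, and the difference was -2.21 ± 0.24 (adjusted p = 2.65e-05). The largest rise of the first list, that of TUBG1, the gamma-tubulin of microtubule nucleation (1.05 ± 0.33, adjusted p = 0.0272), was lost under 7 alternatives, among them without 0h replicate 3 or 4 (adjusted p = 0.0717 and 0.0598) and without 22h replicate 2, 3 or 4 (adjusted p = 0.0525, 0.0789 and 0.0668). Of 41 actin genes, 4 rose and 6 fell (9.76% and 14.6%). Within the ARP2/3 complex, which branches actin filaments, ARPC1A was at 33.7, 24.4, 27.2 and 29.3 FPKM at 0h and at 40.2, 50.4, 76.8 and 67.4 FPKM at 22h (0.97 ± 0.24, adjusted p = 0.00683). ARPC3, of the same complex, went from 182, 187, 211 and 237 FPKM to 78.3, 21.9, 57.9 and 41.0 FPKM (-2.15 ± 0.30, adjusted p = 0.00014). Neither gene overlapped between the groups, so that subunits of a single complex changed in opposite directions. SPIRE1, an actin nucleator used in the asymmetric division of the oocyte, rose by 0.85. Among 64 centrosome and cilium genes, 2 rose and 7 fell (6 and 7 without 0h replicate 4), with a difference of 1.05 for BBS2 and of -2.34 for CFAP58.

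Genes of protein turnover were called in both directions. Of 38 proteasome genes, 12 fell and 4 rose (31.6% and 10.5%, against 19.4% and 7.63% of all genes, median -0.22), with 2 rises without 0h replicate 1, 0h replicate 3 or 22h replicate 3 and 1 without 22h replicate 2. PSMC1, an ATPase of the regulatory particle, was at 67.6, 75, 53.02 and 30.4 FPKM at 0h and at 13.7, 9.23, 14.7 and 13.1 FPKM at 22h. All 22h libraries were lower, by -2.01 ± 0.25 (adjusted p = 6.42e-05). The largest rise of the list, that of PSMD4, a ubiquitin receptor (0.95 ± 0.29, adjusted p = 0.0214), was lost under 4 alternatives, among them without 0h replicate 1 (adjusted p = 0.0549) or 22h replicate 2 (0.0615). Of 27 ubiquitin-conjugating enzymes, 4 rose and 2 fell (14.8% and 7.41%), and of 75 cullin, F-box and related ligase genes, 8 rose and 7 fell (10.7% and 9.33%). Without 0h replicate 4 the ligases had 14 rises and 9 falls, without 0h replicate 2 they had 5 rises, and the conjugating enzymes had 2 rises without 0h replicate 1 or 2. UBE2Q1, a conjugating enzyme, was at 13.4, 10.3, 15.5 and 18.1 FPKM at 0h and at 28.9, 29.2, 28.2 and 31.4 FPKM at 22h (1.01 ± 0.17, adjusted p = 0.000545). FBXO33, a substrate receptor of cullin ligases, was at 21.0, 15.5, 22.5 and 18.4 FPKM at 0h and at 46.4, 45.01, 36.8 and 35.9 FPKM at 22h (1.05 ± 0.18, adjusted p = 0.0006). Both were higher in every 22h library. Outside the list, TRIM36, another ubiquitin ligase, rose by 1.66, from 12.3 to 27.7 FPKM at 0h to 50.3 to 75.6 FPKM at 22h. Of 45 deubiquitinases, 4 rose and 7 fell (8.89% and 15.6%), and OTUB1 fell by 2.38. USP2 had their largest rise (1.15 ± 0.34, adjusted p = 0.0198), which was lost under 4 alternatives, among them without 0h replicate 1, 2 or 3 (adjusted p = 0.0531, 0.0596 and 0.0504).

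Of 81 chaperones, 23 fell and 4 rose (28.4% and 4.94%, against 19.4% and 7.63% of all genes), and without 0h replicate 4 these were 23 and 9. The largest rise, that of AHSA1, a cochaperone of HSP90 (0.91 ± 0.28, adjusted p = 0.0236), was lost under 5 alternatives, among them without 22h replicate 2, 3 or 4 (adjusted p = 0.0638, 0.0683 and 0.0666). The differences were -2.60 for CALR and -2.22 for PPIB, both of the endoplasmic reticulum, -1.34 for HSP90AA1 and -1.20 for HSPA8 in the cytosol, and -2.85 for PFDN1, of prefoldin, whereas HSPD1, the chaperonin of the mitochondrial matrix, rose by 0.82. Transport from the endoplasmic reticulum to the Golgi (76 tested, 7 higher and 13 lower) and RAB GTPases (27 tested, 4 and 5) had shares of falls near that of all genes. SAR1B, the GTPase that starts COPII vesicles, was at 54.2, 58.5, 59.7 and 43.7 FPKM at 0h and at 14.2, 5.28, 9.98 and 6.74 FPKM at 22h (-2.53 ± 0.24, adjusted p = 1.38e-05). RAB9A, of traffic from late endosomes, was at 20.5, 20.3, 16.96 and 20.8 FPKM at 0h and at 36.7, 37.8, 39.9 and 45.9 FPKM at 22h. It was higher in every library, by 0.99 ± 0.14 (adjusted p = 0.000146), while RAB7A, of the same compartment, fell by 1.33. In autophagy (28 tested, 4 higher and 5 lower) ATG16L1, which directs LC3 lipidation, was at 7.84, 3.55, 12.5 and 25.7 FPKM at 0h and at 50.5, 33.3, 36.4 and 34.5 FPKM at 22h, with a rise of 1.83 ± 0.42 (adjusted p = 0.00476), and ATG4B fell by 1.19. Among lysosomal genes (29 tested, 1 higher and 5 lower) GLA rose by 0.93 and ATP6V1D, of the proton pump, fell by 1.51.

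Of 40 genes of DNA replication, 12 fell and 2 rose (30% and 5%, against 19.4% and 7.63% of all genes). RFC3, of the clamp loader, was at 730, 780, 611 and 269 FPKM at 0h and at 133.7, 64.3, 133.6 and 111 FPKM at 22h. The groups did not overlap, and the difference was -2.37 ± 0.33 (adjusted p = 0.000156). The primase gene PRIM1 fell by 1.61 and PRIM2 fell by 1.20. Of 63 genes of DNA repair and recombination, 8 fell and 3 rose (12.7% and 4.76%), both below the shares of all genes. Members that fell include SYCP3 (-0.91) and SYCE2 (-1.51), of the synaptonemal complex. The checkpoint kinase CHEK2 was at 19.5, 20.9, 13.96 and 10.9 FPKM at 0h and at 4.47, 3.02, 5.11 and 3.82 FPKM at 22h (-1.74 ± 0.20, adjusted p = 3.9e-05). PALB2, a partner of BRCA2, was at 16.4, 15.5, 13.5 and 7.09 FPKM at 0h and at 19.5, 31.2, 36.7 and 33.5 FPKM at 22h. It rose by 1.17 ± 0.25 (adjusted p = 0.00302), with no overlap.

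Of all genes 7.63% rose and 19.4% fell, and in each signalling list the share that fell was below that. Of 16 genes of cAMP and PKA signalling, whose cascade keeps the oocyte arrested, 2 fell (12.5%) and none rose in limma (3 were higher at an unadjusted p under 0.05). PDE3A, the phosphodiesterase that lowers cAMP in the oocyte, was at 6.81, 6.34, 7.49 and 8.14 FPKM at 0h and at 7.37, 4.89, 6.25 and 5.35 FPKM at 22h (-0.24 ± 0.15, adjusted p = 0.236), so that the groups overlapped. GPR3, the receptor that sustains cAMP, was listed at 0 in 7 libraries and at 0.26 FPKM in 22h replicate 1, and was not tested. Of 38 serine/threonine phosphatase genes, 4 rose and 3 fell (10.5% and 7.89%), with PPP2R1B, a scaffold of PP2A, at 137, 111, 135 and 111 FPKM at 0h and at 268, 242, 210 and 221 FPKM at 22h (0.92 ± 0.16, adjusted p = 0.000873). Of 38 genes of receptor and growth factor signalling, 3 rose and 4 fell (7.89% and 10.5%). ITPR1, the calcium release channel of the endoplasmic reticulum, differed by -0.00 ± 0.19 (adjusted p = 0.991). STAT3 rose by 0.89, STAT4 fell by 2.09 and IL6ST, the shared receptor of interleukin 6 cytokines, fell by 2.03. Of 82 solute carriers outside the mitochondrial family, 9 rose and 10 fell (11% and 12.2%). SLC17A5, which exports sialic acid from lysosomes, was at 44.2, 33.8, 31.2 and 24.2 FPKM at 0h and at 55.6, 87.4, 78.1 and 95.5 FPKM at 22h (1.22 ± 0.21, adjusted p = 0.000637), and SLC47A1, which exports organic cations, fell by 2.64.

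Of 34 oocyte markers, 4 were called higher and 7 lower (11.8% and 20.6%, near the 7.63% and 19.4% of all genes), with 2 higher without 0h replicate 3 or 22h replicate 2. The secreted factor BMP15 was at 2177, 1737, 2902 and 5492 FPKM at 0h and at 8534, 4534, 5087 and 4303 FPKM at 22h. The groups overlapped through 0h replicate 4, and the call (0.95 ± 0.31, adjusted p = 0.0309) was lost under 7 alternatives, among them without 0h replicate 1, 2 or 3 (adjusted p = 0.0819, 0.093 and 0.0581) and without 22h replicate 1 (0.085). Its partner GDF9 was at 1451, 1391, 806 and 287 FPKM at 0h and at 289, 690, 1260 and 1223 FPKM at 22h, and the difference of -0.15 ± 0.50 did not pass the test (adjusted p = 0.84). The zona pellucida genes ZP2 and ZP3 differed by -0.05 ± 0.20 (adjusted p = 0.861) and 0.71 ± 0.44 (adjusted p = 0.237), and ZP3 spread from 2502 to 7741 FPKM within 22h. ASTL, the protease ovastacin that cleaves the zona after fertilization, was at 1.92, 1.83, 0.83 and 1.14 FPKM at 0h and at 2.46, 3.83, 11.6 and 5.21 FPKM at 22h. It rose from a low level in every library (1.33 ± 0.30, adjusted p = 0.00459). H1-8, the linker histone of the oocyte, differed by 0.28 ± 0.23 (adjusted p = 0.367) and NLRP5, of the subcortical complex, by 0.03 ± 0.22 (adjusted p = 0.933). The call of KPNA7, an importin of the oocyte (0.83 ± 0.27, adjusted p = 0.0328), was lost under 10 alternatives, among them without 0h replicate 2, 3 or 4 (adjusted p = 0.0559, 0.0658 and 0.0648) and without 22h replicate 2, 3 or 4 (adjusted p = 0.0528, 0.0958 and 0.104). The transcription factor OTX2 fell by 1.96 and DPPA5, a gene of germ and pluripotent cells, fell by 2.24. The difference in the sum of all markers did not pass the exact permutation test (p = 0.0857).

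Genes outside the lists were called in similar shares. Of the 5302 genes in no list, 400 rose (7.54%) and 1016 fell (19.2%), against 151 (7.88%) and 381 (19.9%) of the 1916 in a list. Among the 12 named genes with the largest fall were FAM32A (-3.29), TAX1BP3 (-3.25), RPL36AL (-3.15), CCDC167 (-3.08) and C1orf105 (-3.03). MT3, of the metallothionein family, was at 6.93, 10.1, 18.3 and 25.01 FPKM at 0h and at 1.87, 0.00, 0.00 and 0.00 FPKM at 22h, and since its family has close copies its reads could be shared. TSACC, a chaperone cofactor, was at 12.6, 6.91, 11.2 and 23.6 FPKM at 0h and was listed at 0 in 3 libraries of 22h and at 2.62 FPKM in 22h replicate 1. MT3 and TSACC passed the filter only through the 0h libraries. DEGS2, an enzyme of sphingolipid synthesis, fell by 2.97. Outside the mitochondrial genome, the largest rise of a gene with a symbol was that of APH1B, a subunit of gamma-secretase, at 1.11, 1.03, 1.20 and 1.20 FPKM at 0h and at 2.43, 5.06, 18.04 and 10.9 FPKM at 22h (1.96 ± 0.38, adjusted p = 0.00169). The 22h libraries all lay above those of 0h but were far apart from each other. CDC42SE2, an effector of the GTPase CDC42, rose by 1.65.

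**Figure D5:**
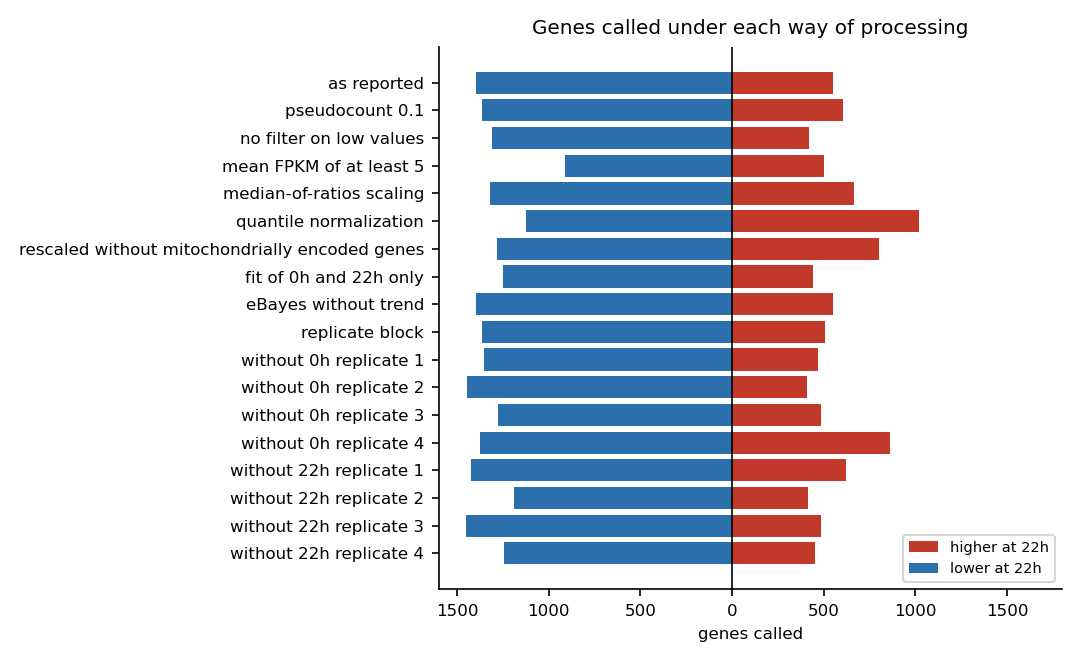
Number of genes called higher (right, red) and lower (left, blue) at 22h as reported and under each of the 17 alternatives. Falls outnumber rises in every bar, by least after quantile normalization (1020 higher and 1125 lower), and leaving out 0h replicate 4 gives the most rises among the left-out libraries (860).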

How the data were processed

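RNA of porcine oocytes was amplified by SMART-Seq2 and sequenced. Per the methods and the labels, the authors trimmed reads with Trim Galore, aligned them with STAR to the swine genome (Sscrofa11), counted with HTSeq and quantified genes with RSEM, and what they deposited is FPKM. These are relative to transcript length and to the library, so no depth was at hand. Groups were taken from the treatment label. Values as log2(FPKM + 1), which understates the change of low genes, entered a limma model (version 3.58.1 in R 4.3.3, lmFit, then eBayes with a trend on intensity) over all 12 libraries, with stage as the factor. The contrast 22h minus 0h was two-sided, with p adjusted by Benjamini-Hochberg over all 7218 genes that reached a mean of 1 FPKM in the 8 libraries compared. Single shares and sums were compared by exact two-sided permutation of 4 against 4 libraries (70 arrangements). Called genes had an adjusted p under 0.05 and a fold change over 1.5, and ± is the SE of the fit.

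The 48 gene lists were written by hand from symbol patterns, and they and the comparison were chosen with earlier results of these data known. At the filter, RBM10 and BRMS1 were just inside and NDNF just outside, at means of 1.0012, 1.0012 and 0.9975 FPKM. The rule for named genes took the 12 genes with the largest rise and fall, the largest rise and fall of each list (some of these are left out), and key oocyte genes whatever their values. One of the genes that the rule took is not reported here. Other members named with a log2 value were chosen after their values were seen. Of the key genes, GPR3 and REC8 did not reach the filter (REC8 was at 0.00 to 0.06 FPKM), and DAZL, DPPA3, AURKA, AURKC, FBXO43 and NPM2 are not analysed here. Symbols, transcripts and coordinates are those of RefSeq, Sscrofa11.1. The 17 alternatives changed the pseudocount (0.1), the filter (none, or a mean of 5 FPKM), the scaling (median of ratios, quantile, or a total without mitochondrially encoded genes), the samples fitted (0h and 22h only), the eBayes trend (none) and the replicate number (as a block), or omitted a library (8 times). The fit was tested on simulated data. In a single run, 59 of 86 genes given a log2 change of 1 were called (68.6%), and 112 of 114 given a change of 2 (98.2%). The run had 4 false calls in all, among the genes given no change. Values were drawn independently for each gene and library, so shifts shared across a library were not simulated. Software was Python 3.11.15 with pandas 2.3.3, numpy 2.4.6 and matplotlib 3.10.9.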

Additional observations from a re-analysis of the deposited data

Results flagged for a closer look

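In 11 of the 256 groups of 4 examined (values of the named genes and sums per library), a single library lay far from the other libraries of its group, and chance alone gives about 1 in 20 such groups. Several of these concern 0h replicate 4. There DEGS2 was at 169 FPKM (81.6 to 96.1 in the other 0h libraries), COA4, an assembly factor of complex IV, at 485 FPKM (275 to 310), and H2AJ at 70.7 FPKM (30.95 to 35.46), all of them genes that fell by 22h.

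In 22h replicate 1, MT3 was at 1.87 FPKM and TSACC at 2.62 FPKM, while both were listed at 0 in the other 22h libraries. CDC26 was at 75.5 FPKM there (33.7 to 40.3 in the others), and the summed oocyte markers were lowest there, at 67120 FPKM (84415 to 87498).

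In the other libraries, CFAP58 was at 1.55 FPKM in 22h replicate 2 (2.54 to 2.69 in the others) and TAGLN, a smooth muscle marker, at 21.6 FPKM in 22h replicate 3 (12.3 to 13.9). SLC47A1 was at 1.61 FPKM in 22h replicate 4 (0.80 to 0.92), and RAB9A was at 16.96 FPKM in 0h replicate 3 (20.3 to 20.8).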

How the results depend on the processing

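The 551 rises became 1020 after quantile normalization and 407 to 860 when a library was left out, 860 of them without 0h replicate 4. The 1397 falls became 909 with a mean of at least 5 FPKM, where fewer genes were tested, and 1187 to 1449 when a library was left out. The cause of the other changes was not tested. All other alternatives gave counts within 1.5 times of those reported, among them 505 rises and 1365 falls with a replicate block. Deviations of same-numbered libraries correlated at -0.46, 0.09, -0.18 and -0.46, and no 0h library correlated best with the 22h library of its own number. With 4 libraries per group, these values cannot tell whether same-numbered libraries share a collection. Of 151 called list members that rose, 82 kept their call under every alternative in which they were tested, as did 289 of 381 that fell. The median of a list relative to all genes kept its sign in 32 of 48 lists. The share of genes with the element ranged from 30.9% to 34.5% among rises and from 11.8% to 13.2% among falls. Without counts, the precision of genes of low FPKM rests on the spread between replicates. In the main fit this spread was taken over all 12 libraries and moderated across genes by eBayes. The fit of 0h and 22h only gave 440 rises and 1249 falls.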
